A study of Mus musculus with 6 samples.

Results

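The genes described here are 41 named members of the integrated stress response and its neighbours, out of the 54532 genes listed in each file. They were taken by symbol and fall into 4 groups, namely 12 stress genes around the transcription factor ATF4, 5 enzymes of serine and one-carbon metabolism, 20 genes of cytosolic tRNA synthetases and 4 genes of endoplasmic reticulum (ER) stress. RNA came from immortalised mouse bone marrow-derived macrophages, in 3 libraries labelled 4-1BBL KO and 3 labelled WT, and all cells had been given IL-4 (10 ng/ml) for 24 hours. 4-1BBL is a TNF family ligand. Both groups carry the v-raf and v-myc retroviruses used to immortalise them, and no library without IL-4 was analysed here, so the response to IL-4 itself is not measured. The labels do not say how many animals or immortalisations lie behind each group. A difference between the genotypes therefore cannot be told apart from a difference between the lines, and p-values measure the spread between libraries, which may be technical.

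ATF4 is a basic leucine zipper transcription factor whose protein is made when kinases such as PERK and GCN2 phosphorylate the initiation factor eIF2alpha, so its activity is set largely by translation and not by its transcript. It binds, often with C/EBP partners, to composite sites in genes for amino acid synthesis, amino acid uptake and tRNA charging. The unfolded protein response of the ER shares the kinase PERK with this pathway and adds branches led by ATF6 and by IRE1 with its target XBP1. In macrophages these pathways supply amino acids and folding capacity for secretion and growth.

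Promoter windows were read from RefSeq on GRCm38.p6, each from 250 bases before to 50 bases after the transcription start, and 33 of the 41 genes matched. The core of the C/EBP-ATF composite site, written TGATGNAAN and searched on both strands, was found in 11 of these 33 genes (33.3%), against 1215 of all 27025 genes with a window (4.50%). The ER stress element, CCAAT and CCACG with 9 bases between them, was found in 1 of the 33, Hspa5, against 37 of all genes (0.137%). The cAMP response element TGACGTCA and the unfolded protein response core TGACGTGG were found in 0 of the 33, against 549 genes (2.03%) and 193 genes (0.714%). None of the matches overlapped another. A match is a description of the letters in this window only. The windows of 7 genes that hold a match are shown, those with the largest log2 fold changes, 5′ to 3′ on the strand of the gene, with the matched bases in capitals.
Chac1: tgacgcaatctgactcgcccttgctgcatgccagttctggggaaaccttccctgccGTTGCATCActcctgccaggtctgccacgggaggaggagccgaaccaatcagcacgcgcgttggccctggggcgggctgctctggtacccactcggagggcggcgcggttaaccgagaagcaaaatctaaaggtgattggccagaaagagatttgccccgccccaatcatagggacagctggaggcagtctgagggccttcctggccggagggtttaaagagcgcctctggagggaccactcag
Atf3: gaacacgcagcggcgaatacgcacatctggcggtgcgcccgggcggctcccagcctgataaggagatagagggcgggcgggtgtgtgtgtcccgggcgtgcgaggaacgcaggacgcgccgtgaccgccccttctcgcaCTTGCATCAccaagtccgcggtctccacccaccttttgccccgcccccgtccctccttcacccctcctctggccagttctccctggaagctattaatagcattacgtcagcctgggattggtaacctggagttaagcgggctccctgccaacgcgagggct
Asns: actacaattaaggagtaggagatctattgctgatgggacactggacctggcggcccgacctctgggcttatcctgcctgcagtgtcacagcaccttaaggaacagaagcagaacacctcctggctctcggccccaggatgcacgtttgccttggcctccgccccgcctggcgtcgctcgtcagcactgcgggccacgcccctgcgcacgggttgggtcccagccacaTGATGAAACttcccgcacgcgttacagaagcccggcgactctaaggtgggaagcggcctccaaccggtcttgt
Yars: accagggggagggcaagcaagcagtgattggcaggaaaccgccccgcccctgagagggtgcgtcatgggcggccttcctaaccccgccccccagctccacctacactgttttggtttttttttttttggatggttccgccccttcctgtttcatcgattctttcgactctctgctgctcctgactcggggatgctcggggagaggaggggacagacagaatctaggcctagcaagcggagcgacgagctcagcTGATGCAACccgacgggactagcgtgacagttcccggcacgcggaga
Gars: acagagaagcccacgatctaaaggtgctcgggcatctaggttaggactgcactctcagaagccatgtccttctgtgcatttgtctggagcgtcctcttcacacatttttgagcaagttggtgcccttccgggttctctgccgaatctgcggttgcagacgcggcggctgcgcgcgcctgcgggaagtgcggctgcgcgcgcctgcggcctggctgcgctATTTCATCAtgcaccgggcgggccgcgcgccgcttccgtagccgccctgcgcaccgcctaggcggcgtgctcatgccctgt
Aars: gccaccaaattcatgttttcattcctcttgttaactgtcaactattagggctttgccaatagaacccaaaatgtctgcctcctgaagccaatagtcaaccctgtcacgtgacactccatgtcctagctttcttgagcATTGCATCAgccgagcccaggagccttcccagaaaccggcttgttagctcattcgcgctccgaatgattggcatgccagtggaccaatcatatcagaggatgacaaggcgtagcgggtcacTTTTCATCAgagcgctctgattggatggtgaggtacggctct
Hspa5: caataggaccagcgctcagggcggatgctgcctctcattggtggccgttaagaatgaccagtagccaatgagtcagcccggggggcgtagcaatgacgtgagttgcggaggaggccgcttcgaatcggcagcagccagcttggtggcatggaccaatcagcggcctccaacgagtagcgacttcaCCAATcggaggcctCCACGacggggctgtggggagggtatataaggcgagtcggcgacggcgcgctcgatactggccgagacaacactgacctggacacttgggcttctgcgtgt
On GRCm38.p6 these windows lie at chr2:119350992-119351291 for Chac1 (plus strand), chr1:191183284-191183583 for Atf3 (minus strand) and chr6:7693160-7693459 for Asns (minus strand). The others lie at chr4:129189653-129189952 for Yars, chr6:55037751-55038050 for Gars, chr8:111033592-111033891 for Aars and chr2:34771840-34772139 for Hspa5, all on the plus strand. The match in Asns starts 23 bases before the transcription start and that in Chac1 194 bases before it.

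**Figure D1:**
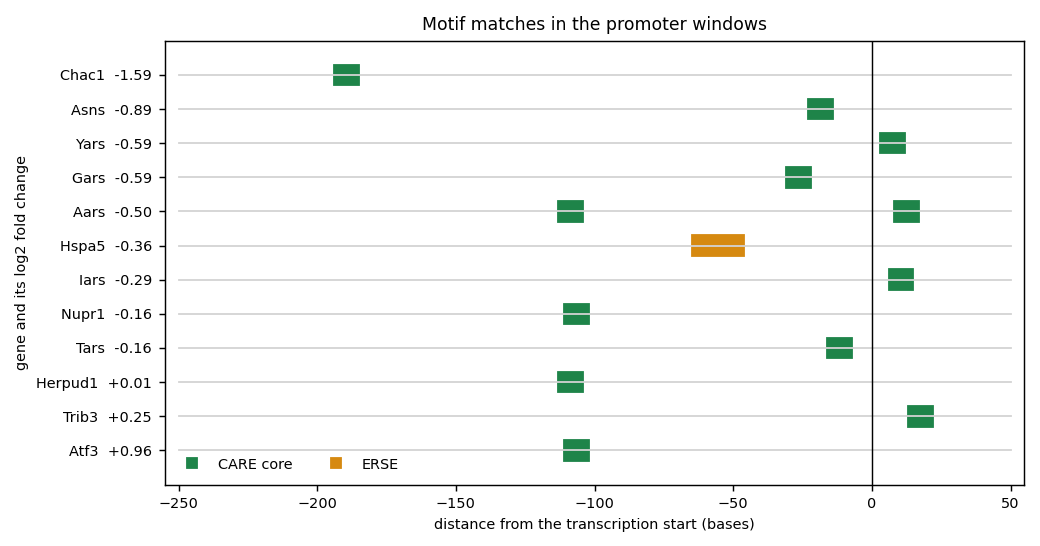
Matches to the composite site core (green) and the ER stress element (orange) in the promoter windows of the 12 genes that hold one, against distance from the transcription start in bases. Genes run from the lowest log2 fold change, 4-1BBL KO over WT, in Chac1 (-1.59) to the highest in Atf3 (0.96).

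The libraries held 19.1 to 26.4 M assigned fragments (M, mega) in the KO-labelled group and 20.7 to 22.3 M in WT, as recovered from the deposited FPKM (fragments per kilobase of exon and per M fragments). Tnfsf9, which encodes 4-1BBL, had 10.7, 10.7 and 11.4 FPKM in KO-labelled libraries, against 14.6, 10.4 and 12.05 FPKM in WT (exact permutation test, two-sided, p = 0.4; this design cannot go below 0.1). The labels do not give the removed part of the gene, so this level does not check them. All 8 macrophage markers were above 1 FPKM on average, with sums of 1302 to 1344 FPKM in KO-labelled and 2008 to 2048 FPKM in WT libraries, but they did not move together. Adgre1 (268 FPKM in KO-labelled and 11.8 FPKM in WT cells on average), Fcgr1 (23.0 and 8.46 FPKM) and Mertk (4.24 and 0.00720 FPKM) were called higher. Lyz2 (484 and 1207 FPKM), Cd68 (275 and 426 FPKM) and Csf1r (134 and 232 FPKM) were called lower, and Itgam and Spi1 were not called. Summed markers of T cells reached 0.993 FPKM in KO-labelled and 2.01 FPKM in WT libraries, and those of epithelium and endothelium 2.17 and 2.02 FPKM. The first sum was nearly all Lck (0.771 and 1.79 FPKM on average), with Cd3e at 0 throughout. The second was nearly all Pecam1 (1.87 and 1.87 FPKM), with Epcam and Krt18 at 0 throughout. Those of B cells, dendritic cells, neutrophils, fibroblasts and erythroid cells reached at most 1.24 FPKM. In bulk RNA, fewer cells of a type and less RNA per cell cannot be told apart. The lines also differed in Myc family genes, picked after their values were seen: Mycn was at 0.0115 to 0.0634 FPKM in KO-labelled and 275 to 283 FPKM in WT libraries, and Myc at 0.851 to 1.55 and 10.2 to 13.8 FPKM. The part of these differences in the results was not tested. Across the 10843 genes tested with limma at an adjusted p of 0.05, 30.6% were higher and 30.2% lower in KO-labelled cells, 60.8% in all, which is the background for every count here. After rescaling to TPM (transcripts per M) the split was 3969 higher and 2642 lower, against 3321 and 3273 in FPKM.

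Most of the 41 genes were lower in KO-labelled cells. All 41 passed the level for testing, and 28 fell, 5 rose and 8 did not pass, so that 68.3% of them fell against 30.2% of all tested genes, and 12.2% rose against 30.6%. Their median log2 fold change was -0.38, beside 0.01 for all tested genes. The groups did not overlap, with KO-labelled libraries lower, for 29 of them (33.4% of all tested genes), and with KO-labelled libraries higher for 6 (34.1%). The shifts were mostly modest: on the log2(FPKM + 1) scale 3 genes fell 2-fold or more (6.28% of all tested genes) and 0 rose by as much (7.23%). The summed level of the 41 genes was 2326 to 2349 FPKM in KO-labelled libraries and 2996 to 3035 FPKM in WT.

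**Figure D2:**
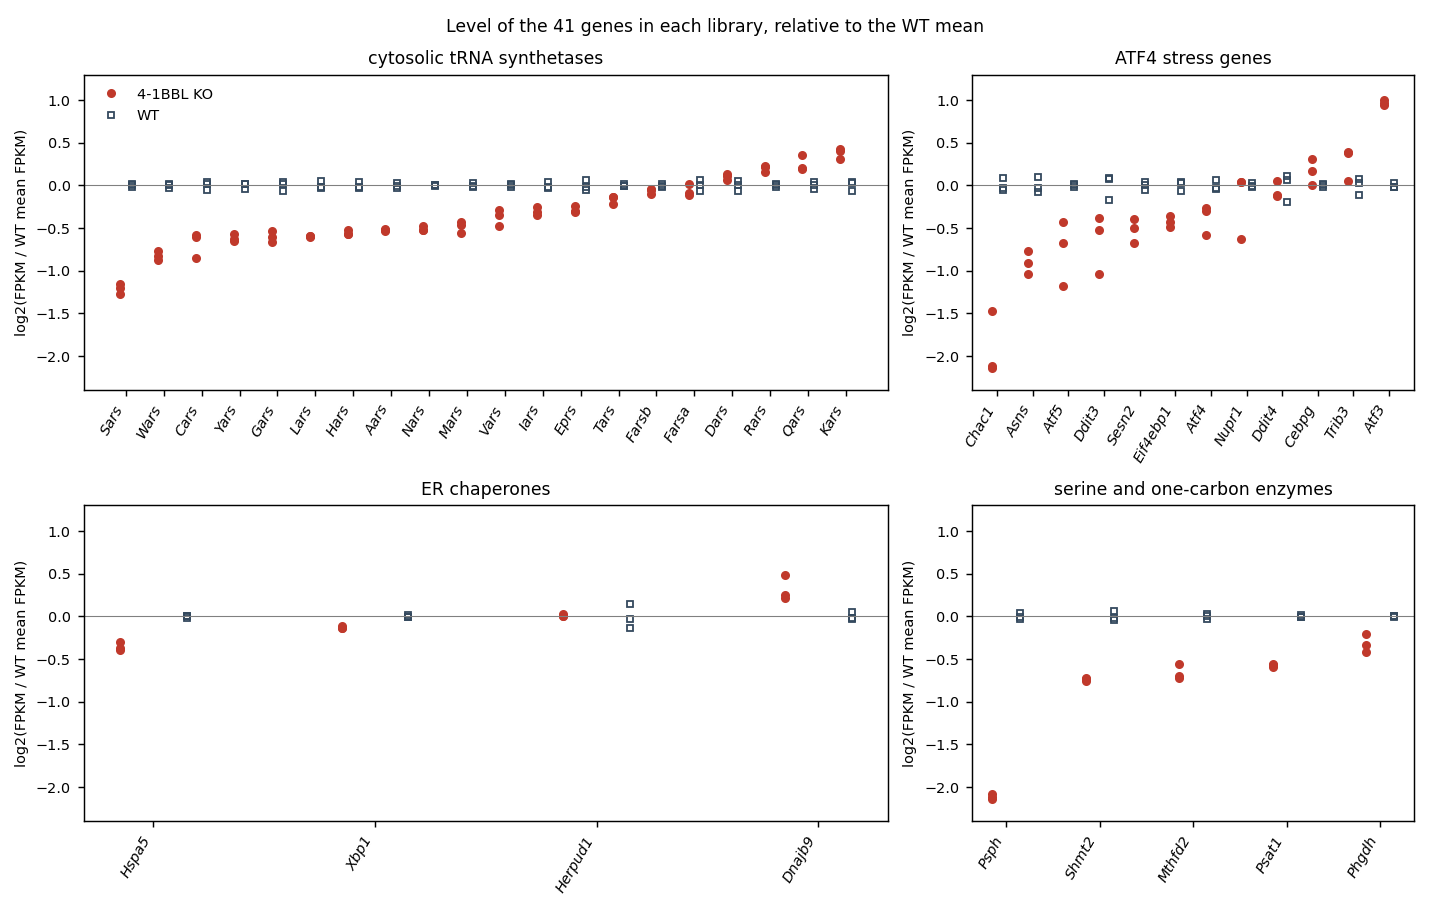
Level of each of the 41 genes in each library, as log2 of its FPKM over the mean FPKM of the 3 WT libraries, with KO-labelled libraries as filled circles and WT libraries as open squares. Most circles lie below the squares of the same gene, while Atf3, Dnajb9, Kars, Qars, Rars and Dars have all 3 circles above them.

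The 12 ATF4 stress genes had a median log2 fold change of -0.40, with 7 lower, 1 higher and 4 without a call. That was 58.3% lower and 8.33% higher, against 30.2% and 30.6% of all tested genes. Atf4 itself, on chromosome 15 at 80255184 to 80257541 (GENCODE M21, mm10, plus strand), had 151, 154 and 124 FPKM in KO-labelled libraries, against 181, 194 and 181 FPKM in WT. The third KO-labelled library was the lowest and the groups did not overlap. The log2 fold change was -0.38 ± 0.087 (SE; limma adjusted p = 0.00800), and -0.20 with an adjusted p of 0.106 under quantile normalization.

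Chac1, an enzyme that breaks down glutathione and a strongly ATF4-dependent gene, fell most in this group. It had 2.38, 3.75 and 2.36 FPKM in KO-labelled libraries, against 11.01, 9.98 and 10.1 FPKM in WT, a 3.66-fold difference in means. All 3 KO-labelled libraries were far below the lowest WT library, and the fewest fragments behind a value were 74. On the log2 scale it fell by 1.59 ± 0.140 (limma adjusted p = 6.99e-05). Asns, the asparagine synthetase, a much studied ATF4 target, had 48.8, 53.5 and 59.1 FPKM in KO-labelled libraries, against 107.6, 95.1 and 98.3 FPKM in WT. Its log2 fold change was -0.89 ± 0.080 (limma adjusted p = 7.79e-05), with the groups well apart.

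Atf5, a related factor that is also controlled by translation, had 13.4, 11.3 and 7.997 FPKM in KO-labelled libraries, against 18.2, 17.9 and 18.03 FPKM in WT. The KO-labelled libraries spread more widely than the WT ones but all lay below them (log2 fold change -0.71 ± 0.157, limma adjusted p = 0.00688). Of its exon length 4.11% overlaps Nup62 on the other strand. Ddit3, which encodes the stress factor CHOP, had 3.47, 4.98 and 5.46 FPKM in KO-labelled libraries, against 6.34, 7.57 and 7.50 FPKM in WT. The log2 fold change was -0.54 ± 0.145 (limma adjusted p = 0.0148), and the adjusted p was 0.0522 without WT replicate 2 and 0.0507 without WT replicate 3. A second identifier carries the symbol Ddit3 in the annotation; it lies wholly within the exons of the gene described and was listed at 0 throughout. How reads in their shared part were counted is not given in the sources used here, and 10.9% of the exon length of the gene described is shared with other genes, 3.97% with Mars on the other strand.

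The leucine-sensing mTORC1 inhibitor gene Sesn2 fell to 6.79 ± 0.648 FPKM in KO-labelled cells, against 9.75 ± 0.308 FPKM in WT (SD, n = 3 each). Eif4ebp1, which encodes the translation repressor 4E-BP1, fell to 32.2 ± 1.39 FPKM, against 43.2 ± 1.78 FPKM in WT. Both passed, with limma adjusted p of 0.00136 and 0.000454.

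Atf3 went the other way and was the only one of the 12 to rise. This stress-induced repressor, on chromosome 1 at 191170296 to 191218039 (minus strand), had 122, 124 and 127 FPKM in KO-labelled libraries, against 62.8, 62.9 and 64.6 FPKM in WT. The groups were far apart and each was tight, with a 1.96-fold difference in means (log2 fold change 0.96 ± 0.038, limma adjusted p = 1.34e-06). Trib3, a pseudokinase induced by ATF4 and CHOP, had 15.1, 11.9 and 14.98 FPKM in KO-labelled libraries, against 10.7, 11.8 and 12.2 FPKM in WT. The second KO-labelled library overlapped the WT range, and the gene did not pass (log2 fold change 0.25, 95% interval 0.02 to 0.49, limma adjusted p = 0.0576), although it did after rescaling to TPM (adjusted p = 0.0181) and without that library (adjusted p = 0.00774). Cebpg, a C/EBP partner of ATF4, did not pass at 9.46 ± 1.03 FPKM in KO-labelled and 8.43 ± 0.0753 FPKM in WT libraries, although it did without the first KO-labelled library (adjusted p = 0.0319). Ddit4, the mTORC1 inhibitor REDD1, did not pass at 18.9 ± 1.34 FPKM in KO-labelled and 19.7 ± 2.17 FPKM in WT libraries. Nor did the chromatin-associated stress gene Nupr1, at 10.3 ± 2.52 FPKM in KO-labelled and 11.4 ± 0.206 FPKM in WT libraries. For Nupr1 the third KO-labelled library, at 7.38 FPKM, stood apart from 11.8 and 11.7 FPKM in the others.

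**Figure D3:**
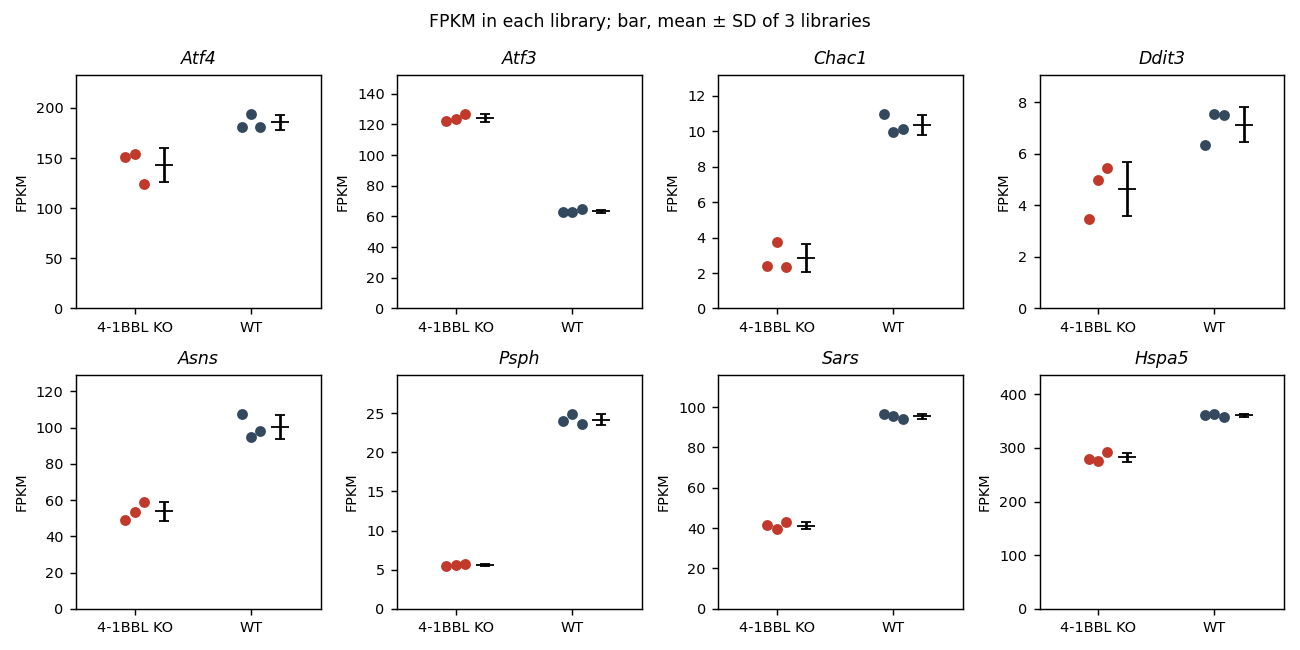
FPKM of 8 genes in each library, KO-labelled at the left and WT at the right of each panel, with the mean and SD of 3 libraries beside the points. Atf3 is higher in all 3 KO-labelled libraries, and the other 7 genes are lower in all 3.

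All 5 enzymes of the serine and one-carbon group fell, the only one of the 4 groups in which every gene did. Of all tested genes 30.2% fell. The median log2 fold change of the 5 was -0.65. Their summed level was 496 to 512 FPKM in KO-labelled libraries and 735 to 753 FPKM in WT. The pathway runs from the glycolytic intermediate 3-phosphoglycerate through Phgdh, Psat1 and Psph to serine, and from serine through Shmt2 and Mthfd2 in the mitochondria.

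The first step showed the smallest difference. Phgdh had 198, 181 and 170.2 FPKM in KO-labelled libraries, against 229, 228 and 227 FPKM in WT (log2 fold change -0.32 ± 0.057, limma adjusted p = 0.00258). Its call was lost under quantile normalization (log2 fold change -0.11, adjusted p = 0.126). Phgdh has 11 near-identical copies in the annotation, so its reads could be divided in the counting. The copy with most signal, Gm7901, had 5.59 ± 1.41 FPKM in KO-labelled and 36.0 ± 2.11 FPKM in WT libraries, and Gm9347 had 0.847 ± 0.299 and 19.5 ± 2.23 FPKM. The part of these copies in the level of Phgdh was not tested.

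Psat1, the aminotransferase of the second step, had 142, 140.1 and 144 FPKM in KO-labelled libraries, against 215, 209.9 and 210.2 FPKM in WT. The spread within each group was small beside the gap (log2 fold change -0.57 ± 0.035, limma adjusted p = 1.07e-05). Psph, the phosphatase that releases serine, showed the largest decrease of all 41 genes. It had 5.48, 5.57 and 5.71 FPKM in KO-labelled libraries, against 24.03, 24.9 and 23.6 FPKM in WT, a 4.33-fold difference in means. Psph lies on chromosome 5 at 129765558 to 129787449 (minus strand), and its log2 fold change was -1.93 ± 0.048 (limma adjusted p = 1.58e-07). Of its exon length 10.4% overlaps the abundant chaperonin gene Cct6a on the other strand, which was higher in KO-labelled libraries at 160 ± 19.0 FPKM, against 134 ± 1.598 FPKM in WT. Cct6a moved in the opposite direction to Psph, and the part of its reads in the level of Psph was not tested.

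Shmt2, which splits serine in mitochondria, had 120.4, 123 and 124 FPKM in KO-labelled libraries, against 201, 213 and 199 FPKM in WT (log2 fold change -0.73 ± 0.041, limma adjusted p = 7.00e-06). Mthfd2, the next enzyme on the folate carrier, had 46.7, 47.3 and 52.4 FPKM in KO-labelled libraries, against 78.2, 77.2 and 75.2 FPKM in WT (log2 fold change -0.65 ± 0.054, limma adjusted p = 5.36e-05). In both genes every KO-labelled library was below every WT library.

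Other serine, folate and methyl cycle enzymes did not move in 1 direction. Of 16 listed, 12 were tested, of which 5 rose and 5 fell, with a median log2 fold change of -0.01 that lay at 0.078 after rescaling to TPM, 0.058 at a mean of at least 5 FPKM, -0.12 without a filter, -0.045 under quantile normalization and 0.022 without WT replicate 3. Each direction held 41.7% of the tested genes in this list, against 30.6% higher and 30.2% lower of all tested genes. Aldh1l2, the mitochondrial enzyme that oxidises formyl folate, fell to 2.10 ± 0.0647 FPKM in KO-labelled cells, against 6.80 ± 0.334 FPKM in WT (limma adjusted p = 3.91e-06). Ahcy, which hydrolyses S-adenosylhomocysteine, rose to 106 ± 6.51 FPKM, against 29.7 ± 1.58 FPKM in WT (limma adjusted p = 6.56e-07). Shmt1, named after its values were seen, rose to 19.6 ± 2.17 FPKM, against 14.4 ± 1.68 FPKM in WT (limma adjusted p = 0.0110).

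Cytosolic tRNA synthetases, which charge tRNAs with their amino acids, were the largest group. Of 20 genes 14 were called lower and 3 higher, and 3 were not called. The median log2 fold change was -0.42, and their summed level was 1017 to 1026 FPKM in KO-labelled libraries and 1310 to 1328 FPKM in WT. Every one had at least 1579 fragments in each library.

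Sars, the seryl-tRNA synthetase, fell most. It had 41.6, 39.4 and 42.8 FPKM in KO-labelled libraries, against 96.7, 95.5 and 94.1 FPKM in WT. The gene lies on chromosome 3 at 108424865 to 108445209 (minus strand), and the log2 fold change of -1.19 ± 0.044 (limma adjusted p = 1.03e-06) was the only one beyond 2-fold among the synthetases. The enzymes that make serine fell too, as did most of the synthetases, and a link between them was not tested. Wars, for tryptophan, which is also induced by interferon, had 29.9, 30.9 and 32.1 FPKM in KO-labelled libraries, against 55.2, 54.99 and 53.7 FPKM in WT (log2 fold change -0.80 ± 0.043, limma adjusted p = 6.09e-06). Cars, for cysteine, had 14.5, 12.2 and 14.6 FPKM in KO-labelled libraries, against 22.1, 22.5 and 21.2 FPKM in WT (log2 fold change -0.64 ± 0.076, limma adjusted p = 0.000328).

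A block of 7 genes fell by similar amounts, with log2 fold changes from -0.59 to -0.47: Yars for tyrosine, Gars for glycine, Lars for leucine, Hars for histidine, Aars for alanine, Nars for asparagine and Mars for methionine. Their 95% intervals overlap, and differences among these 7 were not tested, so no order is claimed. Gars, which serves both the cytosol and mitochondria, was the most abundant with Nars, at 105 ± 4.56 FPKM in KO-labelled and 159 ± 6.20 FPKM in WT libraries, while Nars was at 113 ± 2.30 and 161 ± 1.07 FPKM. Smaller decreases were found for Vars for valine (-0.37), Iars for isoleucine (-0.29), Eprs for glutamate and proline (-0.28) and Tars for threonine (-0.16). The call for Tars was lost after rescaling to TPM (adjusted p = 0.246). Hars shares 7.97% of its exon length with the mitochondrial gene Hars2 on the other strand, Mars 1.99% with Ddit3 and Yars 0.505% with C77080. Iars has a transcript of at least 95% identity under another gene name. For Aars such a transcript belongs to Exosc6, which overlaps Aars exons on the same strand and was at 0 FPKM. Of the exon length of Aars 15.1% is shared with other genes.

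Kars, Qars and Rars rose. Kars, the lysyl-tRNA synthetase, which also serves both compartments, had 60.8, 59.5 and 55.8 FPKM in KO-labelled libraries, against 42.9, 46.1 and 45.98 FPKM in WT (log2 fold change 0.38 ± 0.052, limma adjusted p = 0.000693). Qars, for glutamine, had 33.7, 33.6 and 37.5 FPKM in KO-labelled libraries, against 28.4, 30.1 and 29.3 FPKM in WT (log2 fold change 0.25 ± 0.057, limma adjusted p = 0.00810). Rars, for arginine, had 94.97, 99.6 and 99.2 FPKM in KO-labelled libraries, against 85.9, 84.1 and 85.2 FPKM in WT (log2 fold change 0.20 ± 0.038, limma adjusted p = 0.00340). In each of the 3 the groups did not overlap.

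Dars, for aspartate, was at 46.8 ± 1.23 FPKM in KO-labelled and 43.5 ± 1.81 FPKM in WT libraries and did not pass (log2 fold change 0.10, 95% interval -0.01 to 0.22, limma adjusted p = 0.0971), although it did after rescaling to TPM (adjusted p = 0.0162) and under quantile normalization (adjusted p = 0.0140). The subunits of the phenylalanine enzyme did not pass either: Farsa was at 24.2 ± 1.10 FPKM in KO-labelled and 25.2 ± 1.17 FPKM in WT libraries, and Farsb at 55.02 ± 1.14 FPKM in KO-labelled and 57.5 ± 0.666 FPKM in WT libraries. Their 95% intervals, -0.19 to 0.08 for Farsa and -0.15 to 0.03 for Farsb, exclude a decrease of the size seen in Sars, Wars or Cars.

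Dars, Eprs, Iars, Kars, Lars, Mars, Qars and Rars, 8 of the 20 synthetases, sit in the multisynthetase complex of the cytosol, a division that was made after the values had been seen. Of these 8, 3 rose (37.5%) and 4 fell, while of the 12 outside the complex 0 rose and 10 fell (83.3%). Of all tested genes 30.6% rose and 30.2% fell, so the share that rose inside the complex was near that of all genes. The median log2 fold changes were -0.09 inside and -0.52 outside, and the difference was not tested. Inside the complex the median was 0.0059 after rescaling to TPM and -0.014 under quantile normalization, so that its sign depends on the scaling. The summed level of the complex members was 416 to 420 FPKM in KO-labelled libraries and 442 to 450 FPKM in WT, and that of the others was 598 to 608 FPKM and 863 to 878 FPKM. Of the complex's 3 scaffold genes only Eef1e1 passed, falling to 20.1 ± 1.71 FPKM in KO-labelled cells, against 24.1 ± 1.22 FPKM in WT (limma adjusted p = 0.0194). That call was lost, leaving 0 of 3 lower, after rescaling to TPM and without KO-labelled replicate 1 or WT replicate 3.

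Of the 17 separate mitochondrial synthetase genes 6 fell (35.3%, against 30.2% of all tested genes) and 1 rose (5.88%, against 30.6%). The other 10 were not called. The median log2 fold change of the 17 was -0.14. It was 0.0053 without KO-labelled replicate 3, -0.077 after rescaling to TPM and -0.23 at a mean of at least 5 FPKM. They were expressed at 3.00 to 23.8 FPKM on average, against 17.9 to 137 FPKM for the cytosolic ones. After rescaling to TPM 3 fell and 2 rose, and 3 fell without WT replicate 3. Tars2, for threonine, fell to 10.1 ± 0.835 FPKM in KO-labelled cells, against 13.7 ± 0.315 FPKM in WT (limma adjusted p = 0.00160), while Mars2, for methionine, rose to 3.52 ± 0.0485 FPKM, against 2.48 ± 0.144 FPKM in WT (limma adjusted p = 0.00288). Thus Mars2 and its cytosolic counterpart Mars passed in opposite directions. Sars2, named for its cytosolic counterpart after its values were seen, did not pass at 6.23 ± 0.777 FPKM in KO-labelled and 6.49 ± 0.667 FPKM in WT libraries (95% interval -0.30 to 0.20 in log2).

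**Figure D4:**
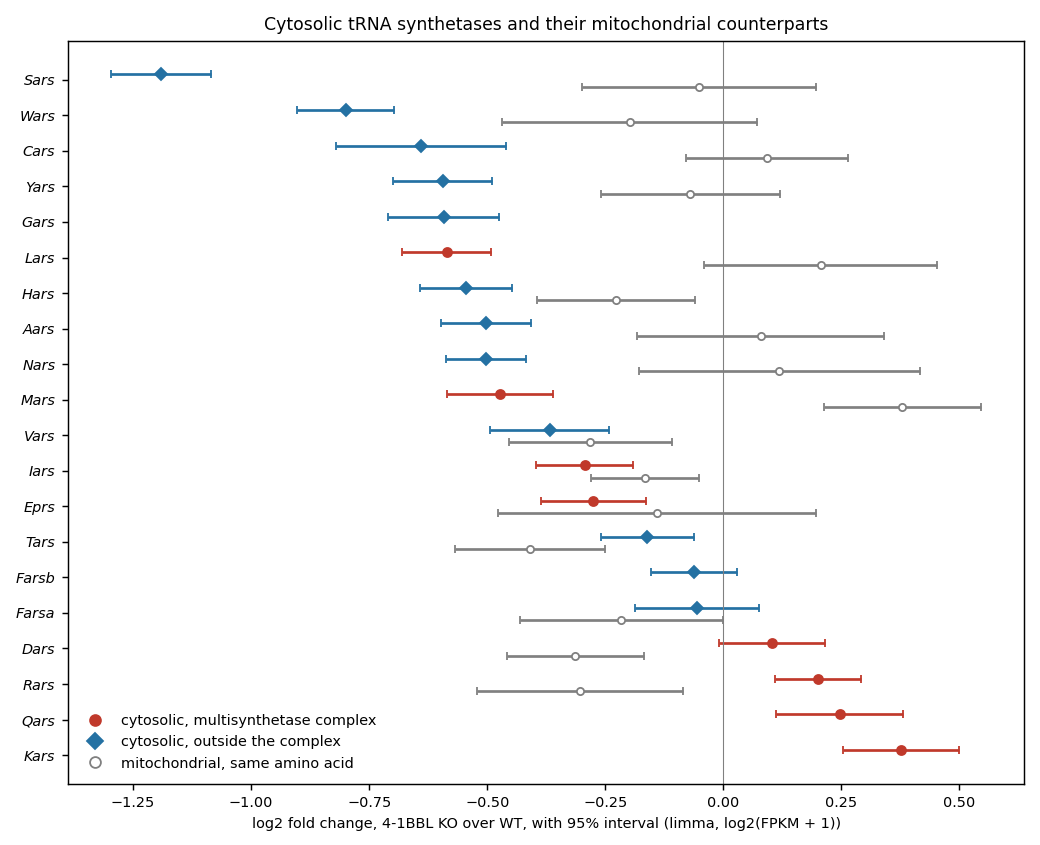
Log2 fold change, 4-1BBL KO over WT, with its 95% interval for each cytosolic synthetase, in red circles for the multisynthetase complex and blue diamonds for the rest, with the mitochondrial gene for the same amino acid in grey below it (Ears2 under Eprs, Fars2 under Farsa). The cytosolic values run from -1.19 in Sars to 0.38 in Kars, and the mitochondrial ones from -0.41 to 0.38.

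The 4 ER genes did not share a direction, with 2 lower, 1 higher and a median log2 fold change of -0.06, which was 0.036 after rescaling to TPM and 0.0095 under quantile normalization. Thus 50% were lower and 25% higher, against 30.2% and 30.6% of all tested genes. Hspa5, which encodes BiP, the main chaperone of the ER lumen, was the most abundant of the 41 genes, with 279, 275 and 293 FPKM in KO-labelled libraries, against 362, 364 and 358 FPKM in WT. The groups were apart (log2 fold change -0.36 ± 0.039, limma adjusted p = 0.000203). Xbp1, whose transcript is spliced by IRE1 under ER stress, had 61.03, 61.98 and 60.9 FPKM in KO-labelled libraries, against 66.6, 68.1 and 66.7 FPKM in WT. Its log2 fold change of -0.13 ± 0.036 passed (limma adjusted p = 0.0180), but not after rescaling to TPM (adjusted p = 0.436), under quantile normalization (0.754), without WT replicate 2 (0.0650) or with replicate numbers as a block (0.0596). Gene-level values do not tell the spliced form of Xbp1 from the unspliced one.

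Dnajb9, a BiP cochaperone and IRE1-XBP1 target, had 5.81, 5.96 and 7.01 FPKM in KO-labelled libraries, against 4.92, 4.94 and 5.20 FPKM in WT. All KO-labelled libraries were above the WT ones and the gene rose (log2 fold change 0.27 ± 0.078, limma adjusted p = 0.0217), but the adjusted p was 0.0655 without WT replicate 1, 0.0637 without WT replicate 2 and 0.0786 with voom on recovered fragments. Herpud1, of ER-associated degradation, was at 37.2 ± 0.352 FPKM in KO-labelled and 36.9 ± 3.74 FPKM in WT libraries and did not pass (95% interval -0.16 to 0.19 in log2, limma adjusted p = 0.873).

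The wider unfolded protein response list had 26 tested genes of 27, 13 of them lower, 4 higher and 9 not called (median log2 fold change -0.18, and -0.096 after rescaling to TPM). After rescaling to TPM 12 fell and 7 rose. P4hb, the protein disulfide isomerase, fell to 233 ± 8.94 FPKM in KO-labelled cells, against 633 ± 5.33 FPKM in WT (limma adjusted p = 2.86e-07). Edem1, of ER-associated degradation, fell to 28.6 ± 0.596 FPKM, against 57.6 ± 0.975 FPKM in WT (limma adjusted p = 1.54e-06). Pdia4 and Ern1, named after their values were seen, went the other way. Pdia4 rose to 131 ± 1.85 FPKM, against 77.0 ± 1.42 FPKM in WT (limma adjusted p = 3.56e-06). Ern1 rose to 4.78 ± 0.129 FPKM, against 2.63 ± 0.219 FPKM in WT (limma adjusted p = 0.000202). The summed level of the list, P4hb included, was 1875 to 1903 FPKM in KO-labelled libraries and 2678 to 2697 FPKM in WT.

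Upstream of ATF4, the list of eIF2alpha, its kinases, its phosphatase subunits and Gcn1l1 had 3 genes higher and 2 lower of 9. These were 33.3% and 22.2%, against 30.6% and 30.2% of all tested genes. Those higher were the kinase genes Eif2ak1, Eif2ak3 and Eif2ak4, and those lower were Eif2s1 and Gcn1l1. The median log2 fold change of the list was 0.08. After rescaling to TPM 5 were higher, with a median of 0.17, and the median was 0.12 under quantile normalization and 0.030 at a mean of at least 5 FPKM. Eif2ak3, which encodes PERK, rose to 5.75 ± 0.367 FPKM in KO-labelled cells, against 3.54 ± 0.154 FPKM in WT (limma adjusted p = 0.000356). Eif2s1, which encodes eIF2alpha itself, fell to 48.6 ± 1.70 FPKM, against 68.5 ± 1.77 FPKM in WT (limma adjusted p = 8.41e-05). Phosphorylation of eIF2alpha is not measured by these values.

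Of 24 other genes that ATF4 is known to regulate, 21 were tested, 13 of them lower, 4 higher and 4 not called (median log2 fold change -0.31, and -0.19 under quantile normalization). Thus 61.9% were lower and 19.0% higher, against 30.2% and 30.6% of all tested genes. Slc7a11, the cystine importer, fell to 1.47 ± 0.160 FPKM in KO-labelled cells, against 5.62 ± 0.329 FPKM in WT (limma adjusted p = 8.15e-06). Aldh1l2, given above, belongs to this list too. Map1lc3b, an autophagosome gene named after its values were seen, rose to 16.0 ± 1.33 FPKM in KO-labelled cells, against 7.18 ± 0.470 FPKM in WT (limma adjusted p = 2.51e-05).

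**Figure D5:**
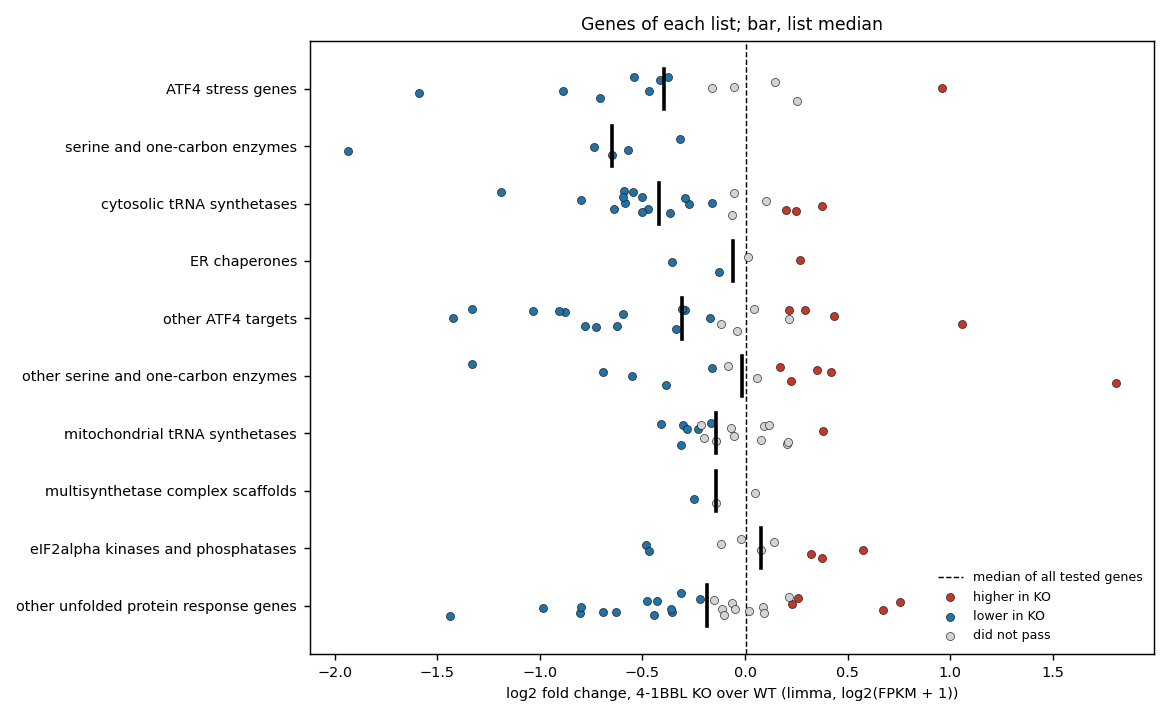
Log2 fold change, 4-1BBL KO over WT, of each tested gene in the 4 groups and in 6 further lists, coloured by whether it rose, fell or did not pass, with a black bar at the list median and a dashed line at the median of all tested genes (0.01). The bars of the serine, synthetase and ATF4 groups lie at -0.65, -0.42 and -0.40.

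The composite site was found in promoter windows of genes of each direction. It was present in 7 of the 21 genes that fell and had a window, in 1 of 4 that rose and in 3 of 8 that did not pass. These are few genes, and whether the site divides them by direction was not tested. Cars, Eif4ebp1, Hars, Lars, Nars, Rars, Vars and Wars had no window. Atf3, which rose, and Chac1, which fell most among genes with a window match, both hold the composite site, each on the minus strand of the window. By group it was found in 5 of 11 ATF4 stress genes, 0 of 5 serine and one-carbon enzymes, 5 of 13 synthetases and 1 of 4 ER genes.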

How the data were processed

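The deposited files hold FPKM, fragments per kilobase of exon and per M (mega) fragments, computed by the authors, 1 column per library. The tools named, per the submitters' processing notes, are featureCounts 1.5.0-p3 and HISAT2 2.0.5, with the build mm10. For the annotation release, the strand setting and multi-mapping reads, nothing is given in the sources used here. The library protocol in the labels allows directional and non-directional libraries, so overlapping antisense genes cannot be assumed to be separated.

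Symbols, positions and exon lengths came from GENCODE M21, which matched 54495 of 54532 identifiers. FPKM times exon length stepped in whole fragments (97.8% to 98.1% of values up to 200 fragments lay within 0.1 of a whole number), which gave the depth. The test was limma 3.58.1 (R 4.3.3) with its trend option on log2(FPKM + 1), for the 10843 genes averaging 1 FPKM or more, as KO minus WT with Benjamini-Hochberg adjustment over all of them. Log2 values use this scale, so the change of low genes is understated, and plain folds are ratios of mean FPKM. Where a symbol had 2 identifiers, the one with more exon length was used. Near-identical copies were found with BLAST 2.17.0+ among annotated transcripts (at least 95% identity over 80% of the shorter transcript and 150 bases). The limma step was tested on simulated data in which far fewer genes changed than were called here. That test does not cover differences as broad as these.

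The 41 genes, the further lists and the tests were chosen with earlier results of these data known. By rule, values in every library are given for Atf4, Asns, Chac1, Ddit3, Trib3, Psat1, Phgdh, Mthfd2, Hspa5 and Xbp1, for the 3 largest called changes per group and for called genes that moved against their group, and the 2 largest called changes of each further list are named. The other members get ranges, fold changes or, for some chosen after their values were seen, a mean and SD. Sars2, Map1lc3b, Shmt1, Pdia4, Ern1, Eif2ak1, Eif2ak4 and Gcn1l1 lie outside the rule, as do the values of Atf5 in every library. Alternatives were 2 pseudocounts, 2 filters, TPM, quantile normalization, voom with TMM on recovered fragments, a replicate block and leaving out each library.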

Additional observations from a re-analysis of the deposited data

How the results depend on the processing

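Of 574 combinations of a gene among the 41 and 1 of 14 alternatives, 549 kept direction and side of the threshold, and 27 of the genes did so in every alternative. Direction turned only for genes that had not passed: Ddit4 (0.038 in log2 with TPM; -0.14 to 0.0020 leaving out 1 library), Nupr1 (-0.27 to 0.038 leaving out 1 library), Farsa (0.036 with TPM), Farsb (0.031 with TPM, 0.042 with quantile normalization) and Herpud1 (-0.0029 with voom; -0.049 to 0.091 leaving out 1 library).

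Rescaling to TPM gave medians of 0.096 for all tested genes, -0.29 for the 41, -0.31 for ATF4 stress genes, -0.56 for serine enzymes, -0.33 for synthetases and 0.036 for ER genes, with 2 ATF4 stress genes higher and 1 ER gene lower. Quantile normalization gave -0.0085, -0.28, -0.30, -0.54, -0.31 and 0.0095 in the same order, with 1 ER gene lower. Voom gave -0.012 for all genes, -0.40 for the 41, -0.68 for serine enzymes, -0.44 for synthetases and -0.077 for ER genes, with 0 ER genes higher. The median of all genes was 0.0091 without a filter and 0.00069 at a mean of at least 5 FPKM, where 8 of the other ATF4 targets were lower and 0 mitochondrial synthetases higher. Without a filter 8 of the other one-carbon enzymes were lower, and voom called 2 mitochondrial synthetases higher.

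Leaving out 1 library gave 4 to 6 higher and 26 to 28 lower of the 41, with medians from -0.41 to -0.37. ATF4 stress genes had 1 to 2 higher and medians from -0.42 to -0.33, serine enzymes -0.70 to -0.62, synthetases -0.45 to -0.38, ER genes 0 to 1 higher, 1 to 2 lower and -0.091 to -0.014, and all genes 0.0026 to 0.010. Same-numbered libraries share only a number (correlations of deviations -0.034, 0.047 and -0.032; 1 of 3 KO-labelled libraries correlated best with its own number), and the replicate block left 27 of the 41 lower and 1 ER gene lower. Without 9 genes with a copy or an expressed overlapping gene, a choice made after the data were seen, 19 of 32 fell and 5 rose. The causes were not tested. At least 74 fragments lay behind every value of the 41.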
